A study of Homo sapiens with 6 samples.

Results

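The expression of 10 genes that import cystine and make, reduce or break down glutathione was examined in SiHa PR cells with and without overexpression of P4HA3. The genes were taken by symbol, with each symbol matched to 1 Ensembl identifier, and form 10 of the 60664 gene rows of the count table. They were SLC7A11 and SLC3A2 for cystine import, GCLC, GCLM and GSS for glutathione synthesis, GSR for glutathione reduction, CHAC1 and GGT1 for glutathione breakdown, and CTH and CBS for the making of cysteine from methionine. Of the 10 genes, 9 had enough counts to be tested and GGT1 did not.

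SiHa is an established cell line from a human cervical squamous cell carcinoma, and the PR cells are the parental cells of a subline selected for lymph node metastasis. Poly-A RNA was sequenced in 3 control libraries and in 3 libraries of cells given P4HA3, which encodes a catalytic subunit of collagen prolyl 4-hydroxylase. According to the methods, P4HA3 was delivered by lentivirus from a cDNA vector, so its expression did not depend on the native promoter. The labels name the control cells only as SiHa PR, no drug or time point is given, and the sources do not say whether the overexpressing cells were 1 clone or a mixed population. They also do not say that the libraries came from separate cultures, so the p-values measure the spread between these samples, which may be technical.

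The libraries held 21773488 to 24939948 counts, and the overexpressed gene followed the labels, with 62 to 93 P4HA3 counts in control libraries and 44775 to 49097 with overexpression. The growth protocol in the labels describes uterine smooth muscle, so the cell type was checked against marker genes. Of 11 epithelial markers, 8 had a mean of at least 1 CPM (counts scaled to the normalized library size) over the 6 libraries, and KRT5, KRT19 and TP63 did not. KRT5 had 3 to 4 counts and TP63 3 to 13 per library. The list summed to 11696 to 13318 CPM in control cells and 10998 to 12519 CPM with overexpression, mostly from KRT7, KRT8, KRT17 and KRT18. KRT6A, CDH1, KRT18 and KRT17 were called lower with overexpression, at log2 fold changes of -1.26, -0.77, -0.40 and -0.32, and none was called higher. Of 7 smooth muscle markers, ACTA2 and SMTN had such a mean, ACTG2 ranged from 0 to 44 counts per library, and the list summed to 95.3 to 105 CPM in control cells and 94.3 to 112 CPM with overexpression. CNN1 and LMOD1 did not exceed 3 counts in any library, and none of 5 leukocyte markers did either. Of 4 endothelial markers, PECAM1 alone passed 3 counts, and the list summed to 2.57 to 3.47 CPM in control cells and 1.33 to 1.62 CPM with overexpression. The libraries differed in how their counts depended on the GC content of genes, also among libraries of 1 group. Computed across genes, Spearman's rho of GC content with a library's departure from its group's mean was 0.22, 0.38 and -0.52 in the control libraries (replicates 1 to 3) and 0.45, -0.48 and 0.08 in the overexpressing ones. Because the 10 genes differ widely in GC content, a fit in which trends on GC content and transcript length were removed per library is given beside the fit of the counts as deposited.

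Cells take up cystine, the oxidized dimer of cysteine, through system xc-, an exchanger made of the light chain SLC7A11 and the heavy chain SLC3A2. Cystine is reduced inside the cell to cysteine, whose supply usually limits the synthesis of glutathione. Glutamate-cysteine ligase, built from the catalytic subunit GCLC and the modifier subunit GCLM, joins glutamate to cysteine, and glutathione synthetase (GSS) adds glycine. Glutathione is the substrate with which GPX4 reduces lipid peroxides, and loss of cystine import or of GPX4 can lead to ferroptosis, an iron-dependent form of cell death. Several genes of this pathway are known targets of NRF2, which binds antioxidant response elements, or of ATF4, which binds CEBP-ATF response elements during amino acid shortage.

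Promoters of 7 of the 10 genes, with 12 start sites, were matched in the RefSeq promoter windows of GRCh38.p14, which run from 250 bases before to 50 bases after a start site. SLC7A11, GSS and GSR were not matched. The bases before the start sites of GCLM and GCLC are shown because these subunits of 1 enzyme rose together, and windows of 30 bases are shown for SLC3A2 and CHAC1, whose calls differed between the fits. Capitals mark a match to TGACNNNGC, the core of the antioxidant response element, in GCLM and SLC3A2, to TGATGNAA, the CEBP-ATF response element, in CHAC1, and to TATAAA, the TATA box, in GCLC. Both strands were searched, and the matches in GCLM and CHAC1 lie on the reverse strand. All sequences read 5′ to 3′ along the gene.
GCLM, chr1:93909431-93909680, minus strand: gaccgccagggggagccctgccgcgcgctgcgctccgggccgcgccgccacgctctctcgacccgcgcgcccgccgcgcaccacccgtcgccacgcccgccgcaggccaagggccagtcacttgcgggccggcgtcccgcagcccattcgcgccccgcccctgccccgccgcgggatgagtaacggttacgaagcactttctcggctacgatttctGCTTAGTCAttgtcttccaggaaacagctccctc
GCLC, chr6:53545102-53545351, minus strand: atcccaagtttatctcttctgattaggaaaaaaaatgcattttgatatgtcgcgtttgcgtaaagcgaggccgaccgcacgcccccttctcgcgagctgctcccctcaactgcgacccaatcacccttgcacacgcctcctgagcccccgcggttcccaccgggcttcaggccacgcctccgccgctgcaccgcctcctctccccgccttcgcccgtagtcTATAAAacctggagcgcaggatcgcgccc
SLC3A2, chr11:62881651-62881680, plus strand: acgagggtgggTGACTCAGCgtcctccttc
CHAC1, chr15:40953251-40953280, plus strand: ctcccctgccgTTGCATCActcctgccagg

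Counted from the start site, with -1 as the base before it, the first base of the match stood at position -34 in GCLM, -29 in GCLC, -37 in SLC3A2 and -209 in CHAC1. Of the SLC3A2 start sites in the windows, only that at 62881699 held a match to either response element. The CHAC1 position is counted from the start site at 40953471. The gene spans of GCLC, SLC3A2 and CHAC1 extend further upstream than the letters shown. The antioxidant response element core was also found at position -83 of a CBS start site and at position -29 of a GGT1 start site, and the CEBP-ATF element also at position 38 of the same SLC3A2 start site. The SLC3A2 match of the antioxidant core also contains TGACTCA, the AP-1 site, and the marked matches did not overlap any other of the 5 motifs searched. These letters are common. Of 35116 promoter windows, 13.3% held the antioxidant core, 3.62% the CEBP-ATF element, 11.5% the TATA box, 45% the GC box GGGCGG and 7.26% the E-box CACGTG. The GC box was present in windows of GCLM, SLC3A2, CTH, CBS and GGT1, and the E-box in none of the 12 windows. A match describes the letters and is not a measured binding site.

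Expression of SLC7A11, GCLC and GCLM was higher with P4HA3 overexpression, and no member of the group was lower. These 3 of the 9 tested genes passed an adjusted p under 0.05 in the quasi-likelihood test of edgeR, adjusted by Benjamini-Hochberg over 15130 genes. Of all tested genes 20.8% were called, 9.36% as higher and 11.4% as lower. The same 3 genes had no overlap between the groups, while 40.1% of all tested genes had none. In bulk RNA, fewer cells expressing a gene and less RNA per cell cannot be told apart. The median log2 fold change was 0.11 over the 9 genes and 0.01 over all tested genes. The rise of SLC7A11 was part of what led the study to this gene in the same samples, so it is not independent evidence of a direction for the pathway.

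**Figure D1:**
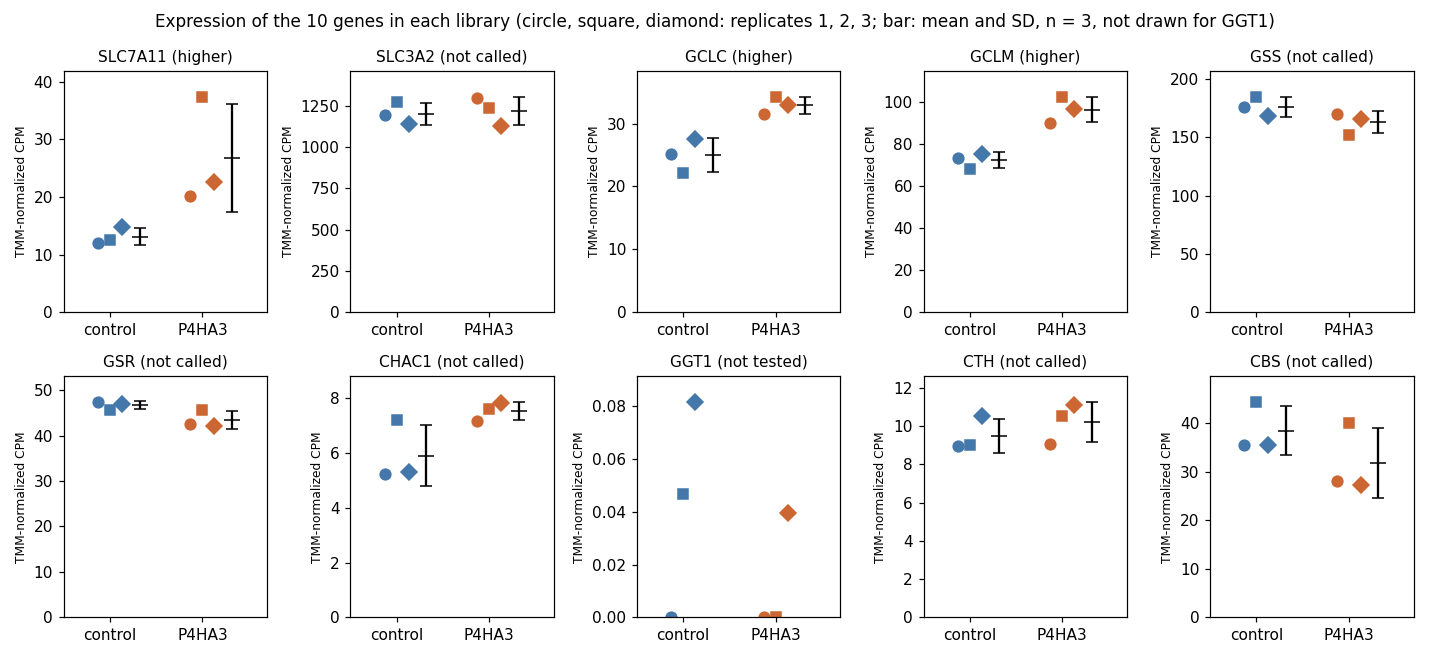
Expression of each of the 10 genes, one panel per gene, as TMM-normalized CPM (vertical axis, from 0) in the 3 control libraries (blue) and the 3 P4HA3 overexpression libraries (orange); bars give the mean and SD. The groups were apart for SLC7A11, GCLC and GCLM, with overexpression replicate 2 of SLC7A11 at 37.4 CPM, and overlapped for the other genes.

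Of the chains of the cystine importer, the light chain rose and the heavy chain was not called in the counts as deposited. SLC7A11 (ENSG00000151012; chromosome 4, 138164097 to 138242349, minus strand, GRCh38) encodes the light chain that carries cystine inward in exchange for glutamate. Its counts were 292, 267 and 359 in the control libraries (replicates 1 to 3) and 470, 842 and 573 in the overexpressing libraries. In normalized units these were 12.0, 12.5 and 14.7 CPM in control cells and 20.2, 37.4 and 22.6 CPM with overexpression. All 3 overexpressing libraries lay above all control libraries, and replicate 2 stood well above the other 2. Mean expression rose from 13.1 ± 1.42 CPM to 26.7 ± 9.35 CPM (SD, n = 3 each), a fold of 2.04. On the log2 scale the change was 1.03 (standard error 0.204, 95% interval 0.58 to 1.48, adjusted p = 0.00958 from edgeR).

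The size of the SLC7A11 difference depended on 1 library. Without overexpression replicate 2 the log2 change was 0.71 (adjusted p = 0.000335 from edgeR), and without control replicate 2 it was 1.00 but did not pass the threshold (adjusted p = 0.0735 from edgeR). The transcript of SLC7A11 is long, at 9645 nucleotides, and has a GC content of 35.4%, the lowest of the 10 genes. With the trends on GC content and length removed, the corrected values were 14.5, 14.1 and 14.8 CPM in control cells and 21.7, 27.3 and 20.9 CPM with overexpression. The groups were still apart, the libraries of each group lay closer together, and the log2 change came to 0.69 (standard error 0.0996, adjusted p = 0.00104 from edgeR). Its exons overlap 865 bases of SLC7A11-AS1 on the opposite strand, which had no count in any library.

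SLC3A2 (ENSG00000168003; chromosome 11, 62856004 to 62888880, plus strand) encodes CD98hc, the heavy chain that brings SLC7A11 and several other light chains to the cell surface. Its expression was 1197, 1275 and 1141 CPM in control cells and 1298, 1237 and 1129 CPM with overexpression, and the groups overlapped. The means were 1204 ± 66.9 and 1221 ± 85.5 CPM (SD, n = 3 each). The log2 fold change was 0.02 (95% interval -0.14 to 0.18, adjusted p = 0.857 from edgeR), so the interval leaves room for a small change in either direction. SLC3A2 has a GC content of 57.8%, and the fit with the trends removed gave another answer. The corrected values were 1109, 1162 and 1117 CPM in control cells and 1311, 1390 and 1204 CPM with overexpression, without overlap, with a log2 fold change of 0.20 (adjusted p = 0.022 from edgeR).

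To compare the partners of each complex with each other, levels were divided by the length of each gene's canonical transcript. Which transcripts were expressed was not measured, so levels per kb depend on that choice. In CPM per kb of transcript, SLC7A11 was at 1.35 ± 0.147 in control cells and 2.77 ± 0.969 with overexpression, while SLC3A2 was at 639 ± 35.5 and 648 ± 45.4 (SD, n = 3 each). The SLC3A2 level per kb was thus 473-fold that of SLC7A11 in control cells and 234-fold with overexpression. The log2 ratio of SLC7A11 to SLC3A2 per length was -8.99, -9.02 and -8.63 in control libraries and -8.36, -7.40 and -8.00 with overexpression. It did not overlap between the groups, and the means differed by 0.96. An exact two-sided permutation test gave p = 0.1, the smallest value that 3 against 3 libraries allow, and 0.3 after Benjamini-Hochberg adjustment over the 3 ratios compared. With the trends on GC content and length removed the difference was 0.47, with the groups still apart.

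Both subunits of glutamate-cysteine ligase rose, with similar log2 fold changes in the counts as deposited. GCLC (ENSG00000001084; chromosome 6, 53497341 to 53616970, minus strand), the catalytic subunit, was at 25.1, 22.2 and 27.5 CPM in control cells and at 31.6, 34.3 and 32.9 CPM with overexpression. GCLM (ENSG00000023909; chromosome 1, 93885199 to 93909456, minus strand), the subunit that lowers the enzyme's feedback inhibition by glutathione, was at 73.1, 67.9 and 75.2 CPM in control cells and at 90.0, 102 and 96.3 CPM with overexpression. For both genes the overexpressing libraries all exceeded the control libraries. The SD of GCLC was 2.65 CPM in control cells and 1.34 CPM with overexpression, and that of GCLM was 3.74 and 6.14 CPM. The log2 fold change of GCLC was 0.40 (standard error 0.0876, 95% interval 0.20 to 0.59, adjusted p = 0.0141 from edgeR). That of GCLM was 0.42 (standard error 0.0668, 95% interval 0.27 to 0.56, adjusted p = 0.00397 from edgeR).

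The call of GCLM was kept under each of the 17 alternatives run, whereas the call of GCLC was lost without control replicate 1 (adjusted p = 0.0615 from edgeR), without control replicate 2 (0.0734) and without overexpression replicate 3 (0.0639), with the log2 fold change then between 0.32 and 0.40, and at the stricter threshold of 0.01. GCLM has a GC content of 37.3% and a transcript of 4883 nucleotides. After the correction its values were 83.1, 75.5 and 75.6 CPM in control cells and 93.1, 82.8 and 90.4 CPM with overexpression. These overlapped by a small margin, and the log2 fold change fell to 0.18 (adjusted p = 0.0406 from edgeR). GCLC, with a GC content of 44.2%, had corrected values of 26.1, 23.6 and 27.5 CPM against 31.8, 32.1 and 31.7 CPM, which stayed apart, with a log2 fold change of 0.31 (adjusted p = 0.00671 from edgeR). GCLC shares 305 exon bases with GCLC-AS1 on the opposite strand, which had 1 to 3 counts per library, and 529 with ENSG00000231683 on its own strand, which had none.

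The ratio of GCLC to GCLM per length was 0.443, 0.423 and 0.473 in control libraries and 0.453, 0.433 and 0.441 with overexpression. The ranges overlapped, so a change in the balance of the subunits was not seen in the counts as deposited (difference -0.01 on the log2 scale, p = 0.8 in an exact two-sided permutation test, 1.0 after adjustment over the 3 ratios). In both groups GCLM was about 2.25-fold the level of GCLC per kb. With the trends removed the difference in the log2 ratio was 0.13 (p = 0.3 in the same exact test), the opposite sign, and the groups still overlapped.

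**Figure D2:**
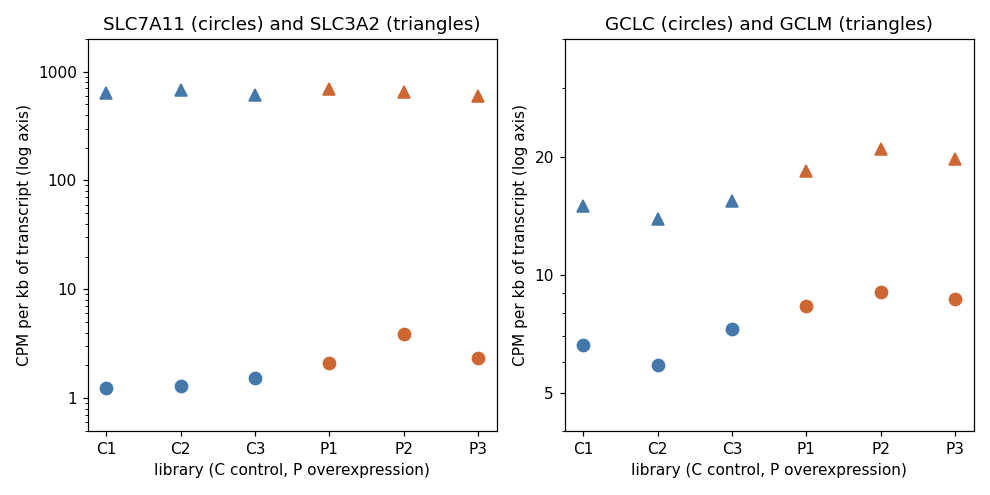
Levels in CPM per kb of transcript (log axes) of SLC7A11 and SLC3A2 (left) and of GCLC and GCLM (right) in control replicates 1 to 3 (C1 to C3, blue) and P4HA3 overexpression replicates 1 to 3 (P1 to P3, orange). SLC7A11 rose, SLC3A2 lay between 599 and 689 CPM per kb, and both ligase subunits rose side by side.

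The enzymes that complete glutathione and keep it reduced were not called. GSS (ENSG00000100983; chromosome 20, 34928432 to 34956027, minus strand), which adds glycine, was at 176, 185 and 168 CPM in control cells and at 170, 152 and 166 CPM with overexpression. The groups overlapped and the log2 fold change was -0.11 (95% interval -0.25 to 0.02, adjusted p = 0.198 from edgeR). It was 0.04 with the trends removed, the opposite sign. GSS shares 138 exon bases with MYH7B on the opposite strand, which had at most 8 counts.

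GSR (ENSG00000104687; chromosome 8, 30678066 to 30727846, minus strand), the NADPH-dependent enzyme that turns oxidized glutathione back to its reduced form, was at 47.4, 45.6 and 47.0 CPM in control cells and at 42.6, 45.7 and 42.1 CPM with overexpression. The groups met at replicate 2. The log2 fold change was -0.10 (95% interval -0.24 to 0.04, adjusted p = 0.253 from edgeR), and with the trends removed it was -0.14 (adjusted p = 0.0754 from edgeR), with all corrected values of the overexpressing libraries below those of control cells. The intervals of GSS and GSR both leave out rises as large as those of the ligase subunits.

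Of the genes of glutathione breakdown, CHAC1 was called in some of the fits and GGT1 was not tested. CHAC1 (ENSG00000128965; chromosome 15, 40952962 to 40956512, plus strand) encodes a cytosolic gamma-glutamylcyclotransferase that splits glutathione and is a known target of ATF4. Its counts were low, at 127, 153 and 130 in control libraries and 167, 171 and 198 with overexpression. In normalized units these were 5.22, 7.18 and 5.31 CPM against 7.17, 7.60 and 7.81 CPM, so control replicate 2 was level with the lowest overexpressing library. The log2 fold change was 0.36 (standard error 0.135, 95% interval 0.06 to 0.66) and missed the threshold (adjusted p = 0.0812 from edgeR). CHAC1 has a GC content of 61.2%. The values after the correction were 4.71, 6.36 and 5.18 CPM against 7.29, 8.85 and 8.49 CPM, without overlap, and the log2 change came to 0.60 (adjusted p = 0.00785 from edgeR). Without the filter on low counts its adjusted p was 0.0356 from edgeR at a log2 fold change of 0.37.

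The log2 ratio of CHAC1 to GCLC, which sets breakdown beside synthesis, differed by -0.04 between the groups (p = 1.0 in an exact two-sided permutation test, also after adjustment over the 3 ratios). With the trends removed it differed by 0.29 (p = 0.3 in the same exact test), and the groups overlapped in both cases. CHAC2, the constitutive relative of CHAC1, had a log2 fold change of 0.20 (adjusted p = 0.114 from edgeR).

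GGT1 (ENSG00000100031; chromosome 22, 24594811 to 24629005, plus strand) encodes the membrane enzyme that starts the breakdown of glutathione outside the cell. It had 0, 1 and 2 counts in control libraries and 0, 0 and 1 with overexpression, at or under the floor of 3 counts, and no fold was computed. It shares 2472 exon bases, 1729 of them coding, with ENSG00000286070 on the same strand, so its reads could not all be assigned to 1 gene. That gene also had at most 3 counts, and the copies GGT2P, GGT3P, GGTLC1 and GGTLC2 had at most 1. Reads that match several copies may have been discarded in counting, and their number is not known here. GGT7, a distant relative, was at 34.6 ± 1.73 CPM in control cells.

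The transsulfuration pathway makes cysteine from homocysteine and can supply glutathione synthesis without cystine import. CBS (ENSG00000160200; chromosome 21, 43053191 to 43076943, minus strand), which condenses homocysteine with serine, was at 35.6, 44.4 and 35.6 CPM in control cells and at 28.0, 40.1 and 27.2 CPM with overexpression. Within each group replicate 2 was the highest and the other 2 were close together, and the groups overlapped through overexpression replicate 2. The log2 fold change was -0.28 (95% interval -0.60 to 0.04, adjusted p = 0.182 from edgeR). Without overexpression replicate 2 it was -0.48 and passed the threshold (adjusted p = 0.00387 from edgeR), while with the trends removed it was -0.09 (adjusted p = 0.722 from edgeR).

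The level of CBS is uncertain because CBSL is a near-identical copy, and the counting may have split their reads. CBSL had 88, 48 and 42 counts in control libraries and 39, 32 and 31 with overexpression. Adding both, a step chosen after the values were seen, gave a log2 fold change of -0.31 (adjusted p = 0.131 from edgeR), with CBSL at 3.43% to 9.21% of the sum. CTH (ENSG00000116761; chromosome 1, 70411218 to 70439851, plus strand), which releases cysteine from cystathionine, was at 8.95, 9.01 and 10.5 CPM in control cells and at 9.06, 10.5 and 11.1 CPM with overexpression. The groups overlapped, with a log2 fold change of 0.11 (95% interval -0.14 to 0.36, adjusted p = 0.501 from edgeR).

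**Figure D3:**
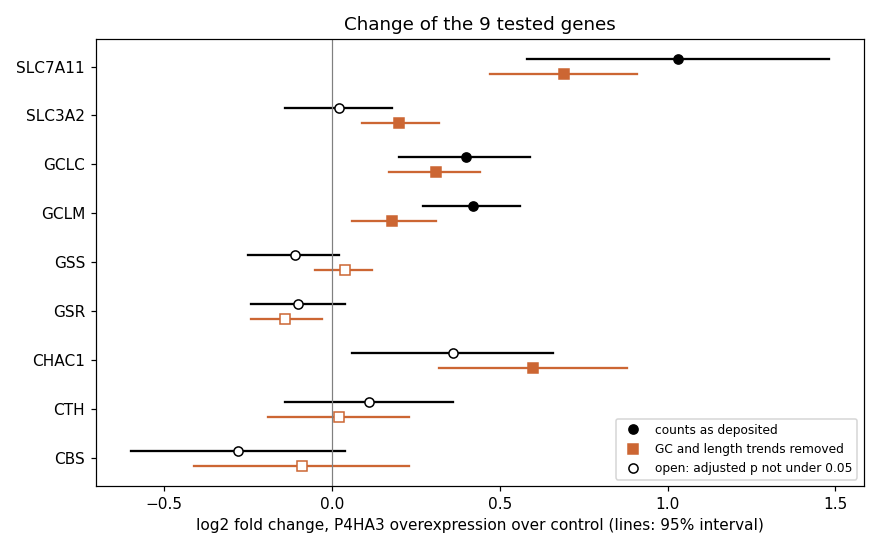
Log2 fold change of the 9 tested genes, P4HA3 overexpression over control, with 95% intervals, from the counts as deposited (black circles) and after removal of the trends on GC content and transcript length (orange squares); filled symbols passed an adjusted p under 0.05. SLC7A11, GCLC and GCLM were filled in both fits, and SLC3A2 and CHAC1 only with the trends removed.

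With the trends removed, 5 of the 9 tested genes were called, all of them higher, and 18.5% of all tested genes were called. SLC7A11, GCLC and GCLM were called in both fits, and SLC3A2 and CHAC1 were added. SLC7A11 and GCLM, the genes of lowest GC content, had smaller changes after the correction, and SLC3A2 and CHAC1, of high GC content, had larger ones. Of all calls, 45% were higher in the counts as deposited and 57.1% with the trends removed. The correction takes out any part of a group difference that follows GC content or length, and whether that part is technical was not tested.

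**Figure D4:**
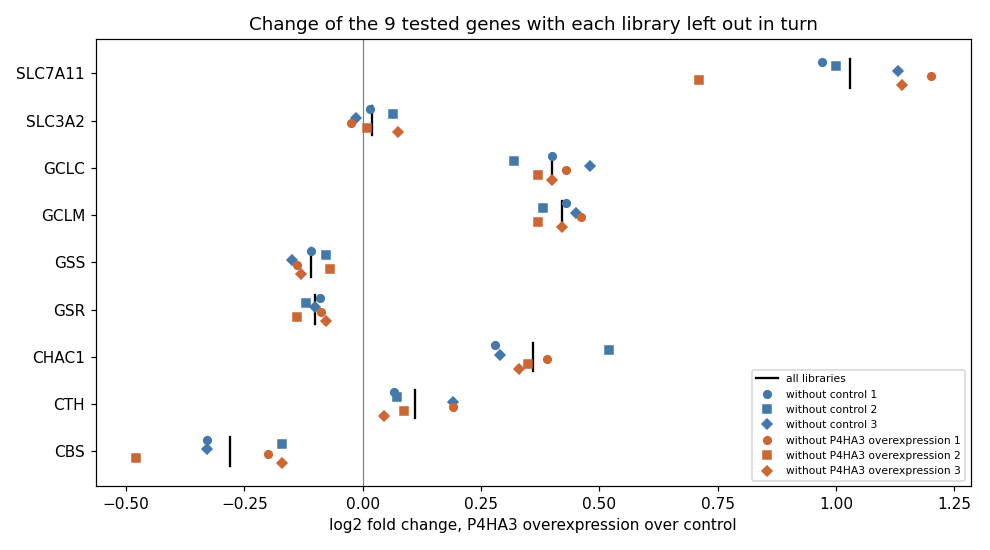
Log2 fold change of the 9 tested genes with all libraries (black bars) and with 1 library left out (blue, a control library; orange, an overexpression library; circle, square and diamond for replicates 1, 2 and 3). SLC7A11 ranged from 0.71 to 1.20, GCLM from 0.37 to 0.46, and CBS from -0.48 to -0.17.

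The order of the levels per kb of transcript was similar in both groups. SLC3A2 was the most abundant, followed by GSS, and each was well apart from its neighbour. In control cells CBS, GSR and GCLM came next, at 15.4, 15.4 and 14.8 CPM per kb, and could not be ordered because their libraries overlapped. They were followed by GCLC at 6.59, by CTH and CHAC1 at 4.54 and 3.88, which overlapped, and by SLC7A11 at 1.35 CPM per kb. With overexpression GCLM, at 19.7 CPM per kb, stood above GSR at 14.3 and CBS at 12.7, which overlapped each other. GCLC followed at 8.70, CHAC1 and CTH were level at 4.95 and 4.89, and SLC7A11 kept its place as the lowest of the 9 tested genes at 2.77 CPM per kb. That place rests on the canonical length of SLC7A11. Without division by length, SLC7A11 averaged 13.1 CPM in control cells and 26.7 CPM with overexpression. CTH then averaged 9.49 and 10.2 CPM, and CHAC1 5.9 and 7.53 CPM.

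The genes whose pattern over the 6 libraries was most like that of SLC7A11 were RALGPS2, UBE4A, HERC4, NUDCD1 and NAA15. Among 9237 genes averaging 10 CPM or more, their Pearson r with SLC7A11 on log2 CPM was 0.999 for RALGPS2 and 0.997 or 0.998 for the others. These are descriptions over 6 libraries in which the groups differ. The 5 genes had GC contents of 35.9% to 41.3%, low like the 35.4% of SLC7A11, and the libraries differed in how counts depended on GC content. The part of that dependence in the likeness was not tested.

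The surrounding pathway was described with 10 further lists of 143 genes, of which 113 were tested. Of these, 8 were higher and 20 lower, with a median log2 fold change of -0.04, beside 9.36% higher and 11.4% lower among all tested genes. After the correction, 10 were higher and 17 lower. Among all 15130 tested genes, 1603 were then higher and 1202 lower. Whether the lists differ from the 10 genes was not tested.

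Of 7 further genes, the heavy chain SLC3A1 and the other light chains of SLC3A2 or SLC3A1, 3 could be tested, all light chains, and 1 was higher. SLC7A6, a carrier of cationic and neutral amino acids, rose from 201, 193 and 213 CPM to 233, 264 and 240 CPM, a log2 fold change of 0.28 (adjusted p = 0.0165 from edgeR), and was also called with the trends removed at 0.21. SLC7A5, the most abundant of the 3 at 3977 CPM in control cells, had a log2 fold change of 0.12 (adjusted p = 0.223 from edgeR) in the counts as deposited and was called higher with the trends removed at 0.32 (adjusted p = 0.00117 from edgeR). Among carriers and enzymes that supply glutamate and neutral amino acids, 2 of 11 tested genes were higher and 1 lower. GLS2, a glutaminase that makes glutamate, fell from 5.31 to 3.71 CPM with a log2 fold change of -0.52 (adjusted p = 0.0235 from edgeR). SLC38A1, a glutamine carrier, rose with a log2 fold change of 0.35 (adjusted p = 0.0336 from edgeR), which was 0.14 with the trends removed.

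In the methionine cycle, which feeds homocysteine to CBS, 1 of 9 tested genes was higher and 1 lower. MTRR, which reactivates methionine synthase, rose with a log2 fold change of 0.22 (adjusted p = 0.0426 from edgeR), and no gene of the list was called with the trends removed. In the list of glutathione breakdown 1 of 6 tested genes, GGT7, was lower, at a log2 fold change of -0.36 (adjusted p = 0.0133 from edgeR), and it was not called with the trends removed at -0.15. In the list of export and mitochondrial import 1 of 8 tested genes was higher. This was ABCG2, a drug efflux pump, which rose from 1.72 to 2.68 CPM with a log2 fold change of 0.63 (adjusted p = 0.0337 from edgeR) and was not called with the trends removed at 0.44 (adjusted p = 0.0729 from edgeR).

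Enzymes that use glutathione were described next. Among glutathione peroxidases 1 of 6 tested genes was higher and 1 lower. GPX8, a peroxidase of the endoplasmic reticulum, rose from 53.5 to 66.6 CPM with a log2 fold change of 0.31 (adjusted p = 0.035 from edgeR), which was 0.14 and not called with the trends removed (adjusted p = 0.099 from edgeR). GPX4, the enzyme that reduces lipid peroxides, was at 467, 466 and 393 CPM in control cells and at 400, 303 and 350 CPM with overexpression. Its groups overlapped, its log2 fold change of -0.33 passed the threshold (adjusted p = 0.0427 from edgeR), and with the trends removed GPX4 was at -0.08 and not called.

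Of the glutathione transferases, glutaredoxins and glyoxalases, 4 of 19 tested genes were lower and none higher. MGST3, GSTK1, GSTM3 and GSTO1, which couple glutathione to electrophiles or reduce peroxides with it, fell with log2 fold changes of -0.37, -0.36, -0.35 and -0.35 and adjusted p-values from edgeR of 0.018, 0.00641, 0.0111 and 0.0235. All 4 had no overlap between groups, as had 10 of the 19 tested genes of the list and 40.1% of all tested genes. The 4 were also called with the trends removed, at -0.39, -0.23, -0.42 and -0.30. GSTP1, the most abundant of the list at 607 CPM in control cells, had a log2 fold change of -0.16 (adjusted p = 0.217 from edgeR).

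In the list of cysteine use outside glutathione, which also holds enzymes of sulfur and coenzyme A metabolism, 4 of 15 tested genes were lower and none higher. MPST, which takes sulfur from 3-mercaptopyruvate, fell from 65.3, 72.7 and 59.7 CPM to 48.7, 40.9 and 41.4 CPM, a log2 fold change of -0.59 (adjusted p = 0.00317 from edgeR). TST, a related sulfurtransferase, fell with one of -0.50 (adjusted p = 0.00759 from edgeR). SQOR, which oxidizes hydrogen sulfide in mitochondria, fell with one of -0.36 (adjusted p = 0.0486 from edgeR). These 3 genes of sulfur metabolism were also called with the trends removed, at -0.29, -0.26 and -0.32. COASY, which makes coenzyme A, fell with -0.26 (adjusted p = 0.027 from edgeR) and was not called with the trends removed. The list then held 1 higher and 3 lower genes.

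GSR depends on NADPH, and of the 18 enzymes of NADPH supply, all of them tested, 1 was higher and 3 lower. IDH2, the mitochondrial NADP-dependent isocitrate dehydrogenase, fell from 94.6, 100 and 89.8 CPM to 74.4, 62.2 and 65.4 CPM, a log2 fold change of -0.49 (adjusted p = 0.00317 from edgeR). IDH1, its cytosolic relative, fell with one of -0.31 (adjusted p = 0.0174 from edgeR). Both were called with the trends removed, at -0.37 and -0.42. ME2, a mitochondrial malic enzyme, rose in the counts as deposited with one of 0.20 (adjusted p = 0.0471 from edgeR). With the trends removed it was at -0.04 and was not called.

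**Figure D5:**
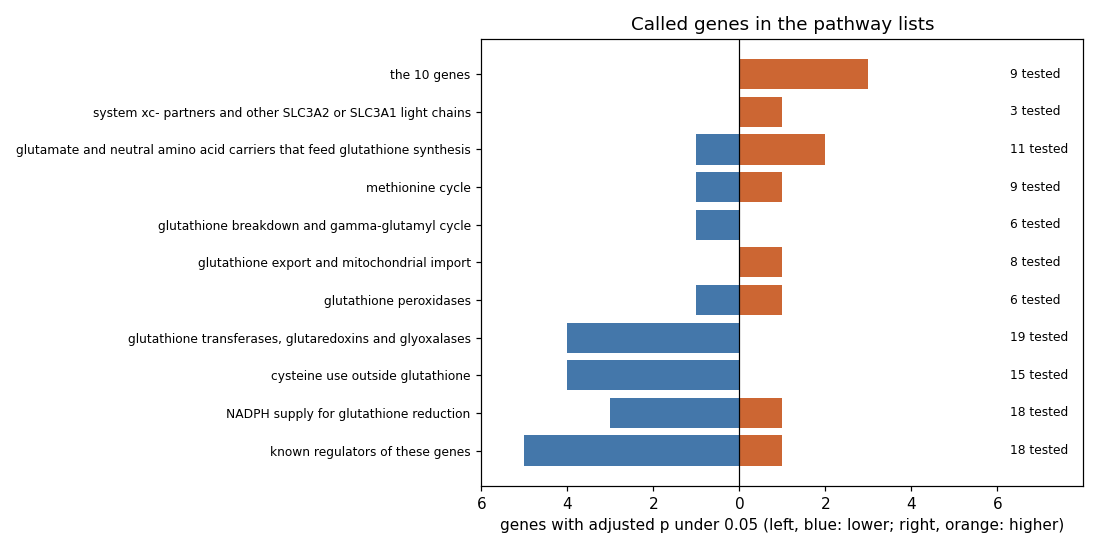
Number of genes called lower (left, blue) and higher (right, orange) at an adjusted p under 0.05 among the 10 genes and in each of the 10 further lists, with the number tested in each at the right edge. The 10 genes held 3 rises and no fall among 9 tested. The list of transferases and the list of cysteine use, which also holds enzymes of sulfur metabolism, held 4 falls each and no rise, among 19 and 15 tested. Of all tested genes 9.36% were higher and 11.4% lower. The counts are from the fit without the correction, and with the trends removed the list of cysteine use held 1 rise and 3 falls.

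Known regulators of the 10 genes were described last. Of 18 regulators, all tested, 1 was higher and 5 lower. In the counts as deposited ATF4 and NFE2L2, which encodes NRF2, were not called, with log2 fold changes of -0.04 and 0.22 (adjusted p = 0.641 and 0.116 from edgeR). KEAP1, the inhibitor of NRF2, was not called either, at 0.00 (adjusted p = 0.988 from edgeR). Only RNA was measured, so the activity of these proteins is not known here. MAFF, a small MAF partner of NRF2, fell from 21.3, 20.7 and 20.2 CPM to 14.4, 12.3 and 13.8 CPM, a log2 fold change of -0.62 (adjusted p = 0.00232 from edgeR). DDIT3 and TRIB3 are both known targets of ATF4, and they moved in opposite directions. DDIT3 rose from 5.38 to 7.38 CPM with a log2 fold change of 0.46 (adjusted p = 0.0172 from edgeR), and TRIB3 fell from 54.3 to 41.6 CPM with one of -0.38 (adjusted p = 0.00703 from edgeR). CEBPB, a basic leucine zipper factor, fell with one of -0.41 (adjusted p = 0.00576 from edgeR). After the correction MAFF, DDIT3 and TRIB3 were still called, at -0.42, 0.53 and -0.16, and CEBPB was not. KEAP1 was then called higher at 0.21 (adjusted p = 0.00269 from edgeR), while ATF4 and NFE2L2, at 0.07 and 0.11, were not called. The list as a whole then had 5 higher and 3 lower genes, so its balance depends on the correction.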

How the data were processed

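RNA-seq was performed on 3 control and 3 P4HA3 overexpression samples of SiHa PR cells. The values deposited by the authors are raw counts per Ensembl gene, without normalization. The methods describe poly-A selected, strand-specific (dUTP) libraries sequenced as paired ends, aligned to GRCh38 with STAR and counted with HTSeq, whereas the submitters' processing notes name HISAT2 and GRCh38. Versions, the strand setting and the rule for reads with several matches are not given in the sources used here. Groups were taken from the sample titles.

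Counts were tested with edgeR 4.0.16 (R 4.3.3) by the quasi-likelihood test, two-sided, after filterByExpr (minimum count 10) and TMM, with Benjamini-Hochberg adjustment over 15130 genes and a threshold of 0.05. No covariate was used. The common biological coefficient of variation was 7.66%. Standard errors are the unshrunk log2 fold change divided by the root of F. Of 60664 identifiers, 60463 matched GENCODE v44 (GRCh38), a later release than the authors' annotation, which gave positions, GC content and the canonical transcript lengths used for CPM per kb. Trends of each library on GC content and log2 length were fitted with mgcv 1.9.3 and entered as an offset. The scripts were tested on simulated data. Log2 ratios used a pseudocount of 0.5 and an exact permutation test. A count of 3 was taken as the floor, and precision at low counts is limited by counting.

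The members and lists were chosen with earlier results of these data known. The text names the members, P4HA3, up to 4 called genes per list (mean of at least 1 CPM, largest change first), the 5 genes most like SLC7A11, and genes overlapping members. GGT7 among breakdown genes, CHAC2, CBSL and the copies of GGT1 are relatives of members. SLC7A5, GSTP1, ATF4, NFE2L2 and KEAP1 were named after their values were seen. Some genes of the lists are counted but not reported by name here. Alternatives were DESeq2 1.42.0, limma-voom (limma 3.58.1), other normalizations, filters and thresholds, a replicate block and each library left out.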

Additional observations from a re-analysis of the deposited data

How the results depend on the processing

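SLC7A11, GCLC and GCLM were called with DESeq2, limma-voom, RLE, upper-quartile or library-size scaling and when each library had to hold 10 counts. The number of the 10 genes called was 3 with all libraries and 5 without a filter on low counts, which added CHAC1 higher and CBS lower, and 5 with the trends on GC content and length removed. It ranged from 1 to 4 with each library left out, the lowest (GCLM only) without control replicate 2. All genes called numbered 3147, 4485 without the filter and 2805 with the trends removed. They numbered 728 at an adjusted p under 0.01, and 534 to 5530 with each library left out. With library sizes only, 5 of the 10 genes had no overlap between groups, with CHAC1 above and GSS below in addition. The share over all genes is not given for that setting, and it was 40.1% of the tested genes in the main fit. The cause of these differences was not tested.

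The replicate numbers gave no clear pairing of the samples. Correlations of deviations were 0.25, -0.05 and 0.03 for numbers 1, 2 and 3, and 3 of 6 libraries were most like the library of the same number. So few values cannot settle whether samples of the same number were paired. With the replicate number as a block, 5 of the 10 genes were called, the same 5 as without a filter, among 4313 genes in all. With the block and the correction 5 were called, among 3793 genes in all.

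Directions turned for GSS (0.036 with the trends removed, with and without the block), for SLC3A2 (-0.015 without control replicate 3; -0.025 to 0.075 with each library left out, lowest without overexpression replicate 1), and for the log2 ratios of GCLC to GCLM (0.13) and CHAC1 to GCLC (0.29) with the trends removed. The SLC7A11 to SLC3A2 difference moved to 0.47. CHAC1 rests on 127 to 198 counts per library, so counting error adds to the spread of its values.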
